A study of Homo sapiens with 4 samples.

Results

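Mitochondrial ribosomal proteins are made from nuclear genes, and their genes were taken here as every symbol that starts with *MRPL* or *MRPS* followed by a digit. On the HumanHT-12 v4 BeadChip 80 of 20046 gene symbols met this rule, with 115 of 47321 probes. A probe was kept when its detection p-value, which compares it with the negative controls of its array, was under 0.05 on at least 2 of the 4 arrays. This left 78 of 11875 genes, with 107 of 20579 probes. All 76 protein-coding members were among them and were detected on all 4 arrays. The other 4 symbols are not protein-coding. Of these the antisense transcript *MRPL20-AS1* and the pseudogene *MRPL42P5* had a kept probe, and *MRPL23-AS1* and *MRPS31P5* had none.

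HCT116-MT and HCT116-WT are derivatives of the human colorectal cancer line HCT116 and were untreated. The parent has a mutant and a wild-type allele of *CTNNB1*, which encodes β-catenin, a coactivator of WNT target genes. HCT116-MT kept the mutant allele and HCT116-WT the wild-type allele after the other allele had been disrupted. RNA of 2 HCT116-MT and 2 HCT116-WT samples was hybridized, with 1 array per sample. Each genotype is a single derived line, so that allele and line cannot be told apart, and neither labels nor methods state that replicates were grown as separate cultures. The p-values therefore reflect the spread between the arrays at hand, and this spread may be technical. In limma each probe's variance is also drawn toward a value estimated over all kept probes. Its SE and p therefore do not measure that probe's own spread alone.

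The mitoribosome translates the messages of mitochondrial DNA, which encode core subunits of the respiratory chain and of ATP synthase. It descends from a bacterial ribosome, and its proteins are translated in the cytosol, imported and built onto rRNA that is itself transcribed from mitochondrial DNA. Part of the proteins have bacterial counterparts, and others were added during the evolution of mitochondria. The large subunit forms peptide bonds and holds the exit tunnel, whereas the small subunit binds the mRNA and decodes it.

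*CTNNB1* was expressed in both lines, with intensities of 2833 and 2196 in HCT116-MT and 2143 and 1949 in HCT116-WT. Intensities are given throughout after quantile normalization, in the order replicate 1 and replicate 2. Whether its probe tells the alleles apart was not tested. The arrays detected 41.4% and 42.3% of probes in HCT116-MT and 41.8% and 42.5% in HCT116-WT. Over the members' log2 intensities the HCT116-MT arrays correlated at r = 0.977 with each other and the HCT116-WT arrays at r = 0.967, whereas replicate 1 of HCT116-MT and replicate 2 of HCT116-WT correlated at r = 0.975. The epithelial markers *EPCAM*, *KRT8*, *KRT19* and *CDX2* were detected on all arrays, and *KRT18* and *VIL1* had no kept probe. *EPCAM* was at 7883 and 11200 in HCT116-MT and at 22117 and 14375 in HCT116-WT, and fell at a raw p under 0.05 with a change beyond 1.5-fold (log2 fold change -0.92, adjusted p = 0.449 with limma), but not without replicate 1 of either line or with Student's t-test. *KRT8* (-0.35) and *KRT19* (-0.60) were also lower in HCT116-MT with no overlap of the lines, whereas *CDX2* (0.19) overlapped. What part these markers have in the results was not tested. Of markers of other cells, 3 of 6 fibroblast, 1 of 4 endothelial and 2 of 4 leukocyte genes on the array had a kept probe. Of the leukocyte genes *PTPRC* and *CD3E* had no kept probe, *CD14* was at 154 and 159 in HCT116-MT and 139 and 163 in HCT116-WT, and the macrophage and lysosome marker *CD68* was at 793 and 1093 in HCT116-MT and 2314 and 3479 in HCT116-WT (-1.61).

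Most mitoribosomal protein genes were somewhat higher in HCT116-MT than in HCT116-WT. The median of their fold changes was close to the median of their standard errors, 0.20 on the log2 scale. Each of these is the error of a single gene's fold change, and none measures the error of the median over the genes. Of the 78 genes 60 (76.9%) had the higher mean in HCT116-MT, against 5933 of all 11875 genes. Their median log2 fold change, HCT116-MT minus HCT116-WT, was 0.22, with quartiles of 0.0046 and 0.38 and a range of -0.45 to 0.96, whereas the median over all genes was -0.00046. The arrays measure total RNA of whole cultures on a relative scale, so that RNA per cell and the make-up of a culture cannot be told apart. At the thresholds of the study, a raw p under 0.05 with a change beyond 1.5-fold, 6 members rose and 0 fell. Over all genes 3.48% rose and 3.86% fell at these thresholds. At an adjusted p under 0.05 (limma, Benjamini-Hochberg over all kept probes) 0 members were called, against 0.0168% of all genes, and the smallest adjusted p of a member's brightest probe was 0.398. At an unadjusted p under 0.05 limma called 8 members higher and 1 lower, against 5.31% and 5.41% of all genes, and Student's t-test also left 0 members at an adjusted p under 0.05. In 36 members both HCT116-MT arrays lay above both HCT116-WT arrays, and in 6 members both lay below. Over all genes these shares were 20.7% and 19.1%. A 2 against 2 design cannot reach an exact two-sided permutation p under 0.333, so that no such test is given for single genes.

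**Figure D1:**
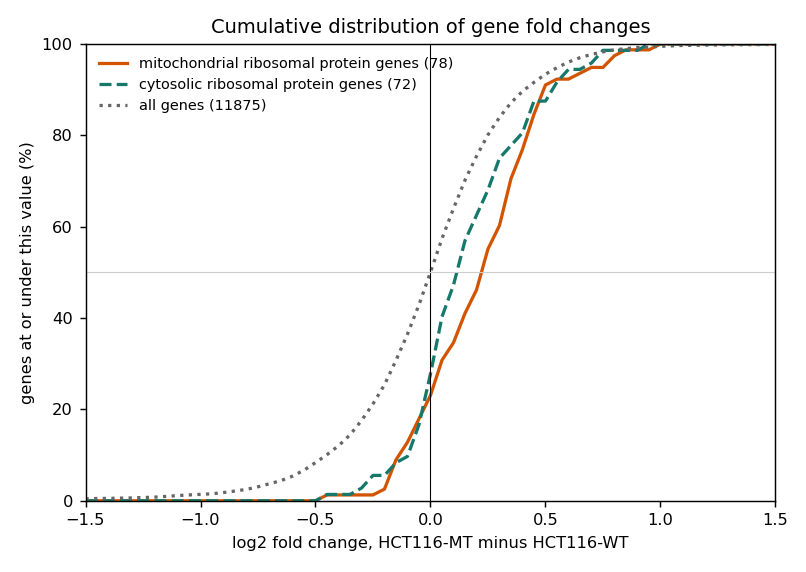
Cumulative percentage of genes (vertical axis) at or under each log2 fold change, HCT116-MT minus HCT116-WT (horizontal axis), for the 78 mitochondrial ribosomal protein genes, 72 cytosolic ribosomal protein genes and all 11875 genes. The curve of the mitochondrial ribosomal protein genes lies to the right of that of all genes over most of its range and crosses 50% at 0.22, whereas the widest falls and rises belong to other genes.

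The shift was not of the same size on each array of a line. Measured from each gene's mean over the 4 arrays, the members averaged 0.04 and 0.17 (log2) on the HCT116-MT arrays and -0.04 and -0.17 on the HCT116-WT arrays. Replicate 2 of HCT116-MT held the highest value of the 4 arrays in 38 of 78 genes, and replicate 2 of HCT116-WT held the lowest value in 46. Over all genes these shares were 24.1% and 30.5%. Over all genes the same averages were -0.0043 and -0.012 in HCT116-MT and 0.016 and 0.00078 in HCT116-WT, and over cytosolic ribosomal protein genes 0.09 and 0.07 in HCT116-MT and -0.10 and -0.05 in HCT116-WT. Leaving out replicate 2 of HCT116-MT gave a median of 0.12 over the members, with 55 of 78 higher in HCT116-MT. With replicate 2 of HCT116-WT left out the median was 0.15, with 54 higher.

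**Figure D2:**
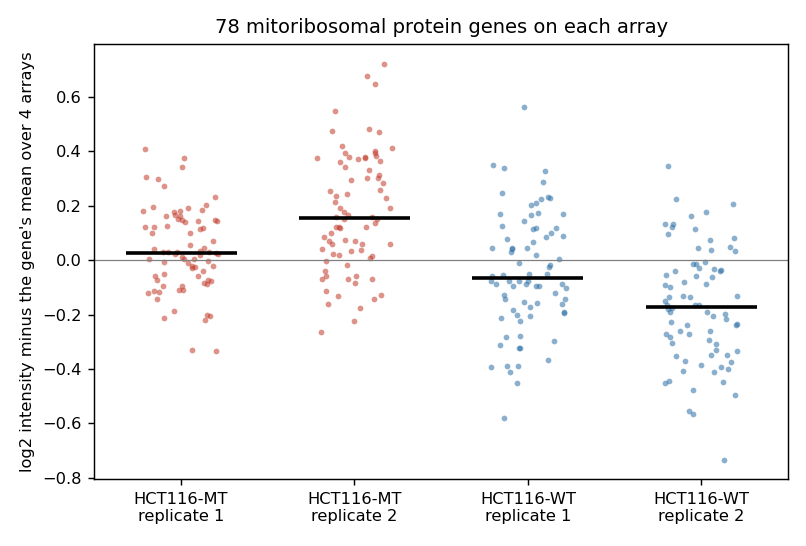
Log2 intensity of each of the 78 genes on each array, minus the mean of that gene over the 4 arrays (vertical axis), with 1 point per gene and a black bar at the median. The median lies at 0.03 and 0.15 on the HCT116-MT arrays and at -0.07 and -0.17 on the HCT116-WT arrays, and the points of all 4 arrays overlap.

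Among proteins of the large subunit, *MRPL42*, *MRPL1* and *MRPL32* rose at the study thresholds. *MRPL42* codes for a protein that came with the mitochondrial ribosome and has no bacterial counterpart. Its brightest probe had intensities of 2449 and 2678 in HCT116-MT, against 1292 and 1636 in HCT116-WT. Both HCT116-MT values lay above both HCT116-WT values, with a log2 fold change of 0.82 (SE 0.20, adjusted p = 0.398 with limma). A second probe of *MRPL42* read 1098 and 1370 in HCT116-MT and 598 and 638 in HCT116-WT. That probe gave a log2 fold change of 0.99 and an adjusted p of 0.314 (limma), again with no overlap of the lines. With Student's t-test *MRPL42* was the only member past the study thresholds, where 1.28% of all genes rose.

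*MRPL1* belongs to the mobile stalk beside the site where spent tRNA leaves the ribosome. It was measured at 1512 and 2120 in HCT116-MT, against 1101 and 773 in HCT116-WT. The lines did not overlap, and the log2 fold change of 0.96 (SE 0.27, adjusted p = 0.421 with limma) was the highest among the members' brightest probes. *MRPL32*, a protein with a bacterial counterpart that is trimmed after import by a protease of the inner membrane, as known from yeast and mouse, had intensities of 3975 and 4918 in HCT116-MT and 3101 and 2593 in HCT116-WT. Its log2 fold change was 0.64 (SE 0.20, adjusted p = 0.452 with limma), and the lower HCT116-MT array stood above the higher HCT116-WT array.

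In the small subunit *MRPS17*, *MRPS11* and *MRPS23* rose at the study thresholds. *MRPS17* and *MRPS11* have bacterial counterparts that bind rRNA of the small subunit, and *MRPS23* has none. *MRPS17* had intensities of 2033 and 2989 in HCT116-MT, against 1428 and 1406 in HCT116-WT. The HCT116-WT arrays were close to each other and replicate 2 of HCT116-MT stood highest, with a log2 fold change of 0.80 (SE 0.23, adjusted p = 0.431 with limma).

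*MRPS11* was at 1351 and 1938 in HCT116-MT and at 1019 and 879 in HCT116-WT (0.77 on the log2 scale with an SE of 0.23, adjusted p = 0.442 with limma). Its second probe, at 700 and 943 in HCT116-MT and at 571 and 435 in HCT116-WT, gave 0.70. Neither probe overlapped between the lines. *MRPS23* had intensities of 2032 and 2680 in HCT116-MT, against 1491 and 1388 in HCT116-WT, and again replicate 2 of HCT116-MT was the highest array (0.70 on the log2 scale with an SE of 0.21, adjusted p = 0.431 with limma).

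Although *MRPL42* and *MRPL1* stayed beyond 1.5-fold without replicate 2 of HCT116-MT, none of the 6 genes kept its call. Without that array their log2 fold changes were 0.75 for *MRPL42*, 0.71 for *MRPL1*, 0.52 for *MRPS17*, 0.51 for *MRPS11*, 0.49 for *MRPS23* and 0.49 for *MRPL32*, and the unadjusted limma p of the 6 lay between 0.0510 and 0.139. Without replicate 2 of HCT116-WT *MRPS11* and *MRPL32* also missed the study thresholds, at an unadjusted limma p of 0.0589 and 0.0843. With any of the 4 arrays left out the 6 genes had the higher mean in HCT116-MT.

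**Figure D3:**
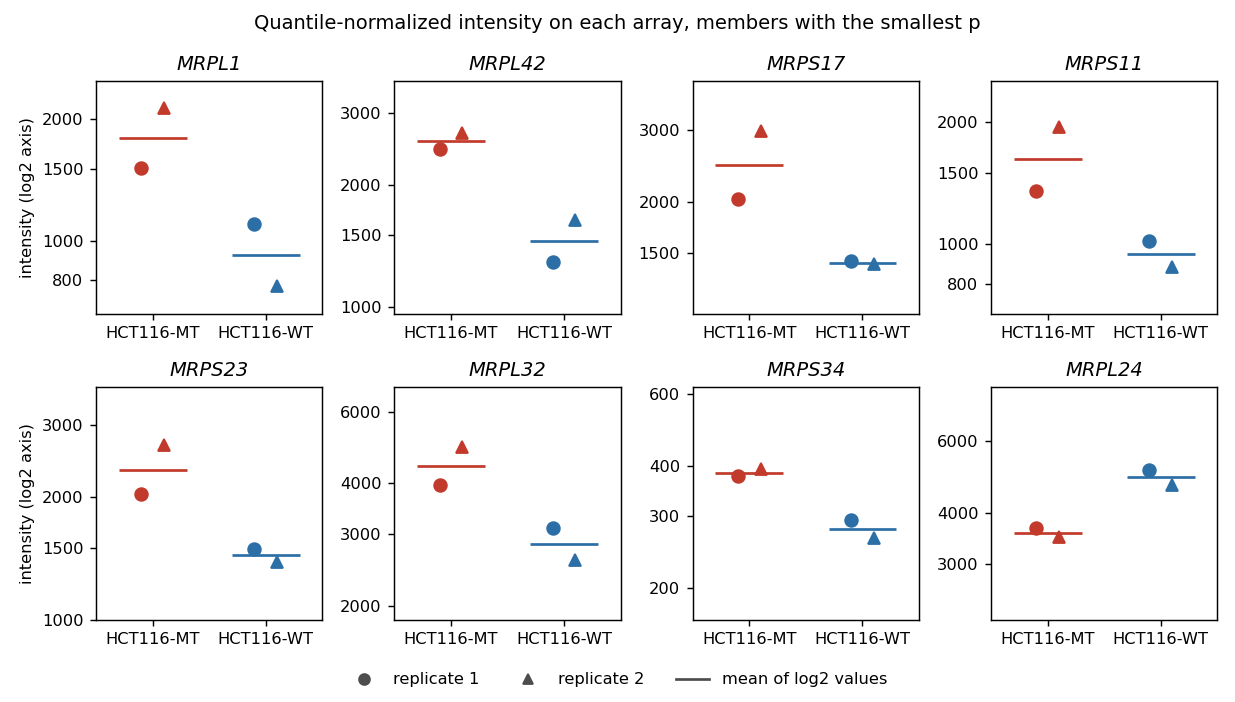
Quantile-normalized intensity on each array (vertical axis, log2 scale, own range per panel) of the 6 members that rose at the study thresholds, of *MRPS34* and of *MRPL24*, with HCT116-MT in red, HCT116-WT in blue, circles for replicate 1, triangles for replicate 2 and a line at the mean of the log2 values. In the first 7 panels both HCT116-MT arrays lie above both HCT116-WT arrays, and in the *MRPL24* panel both lie below.

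The promoters of 5 of the 6 genes are shown, since these are the members that rose. They are RefSeq windows of the GRCh38.p14 build, from 250 bases before to 50 bases after a gene's start, read 5′ to 3′ on the gene's strand. Capitals mark letters of factors known to act at promoters of mitochondrial genes, searched on both strands: CCGGAAG, the core bound by ETS factors such as GABP, TGCGCA, a half-site of NRF1, and ATGGCGG, found in YY1 sites. CACGTG, an E-box, and CTTTGAT, which TCF/LEF partners of β-catenin bind, were searched too and occur in none of the 5. *MRPL42* (chr12:93467264-93467563, plus strand) and *MRPL1* (chr4:77862580-77862879, plus strand) hold ATGGCGG shortly after their start, *MRPS23* (chr17:57849995-57850294, minus strand) holds the ETS core on the other strand just before it, *MRPL32* (chr7:42932126-42932425, plus strand) holds TGCGCA at 2 places and ATGGCGG on the other strand, and *MRPS11* (chr15:88467458-88467757, plus strand) holds none of these letters. *MRPS17*, which is not shown, holds none of them either. ATGGCGG also begins with the start codon ATG, so that a match may be the beginning of a coding sequence.
MRPL42: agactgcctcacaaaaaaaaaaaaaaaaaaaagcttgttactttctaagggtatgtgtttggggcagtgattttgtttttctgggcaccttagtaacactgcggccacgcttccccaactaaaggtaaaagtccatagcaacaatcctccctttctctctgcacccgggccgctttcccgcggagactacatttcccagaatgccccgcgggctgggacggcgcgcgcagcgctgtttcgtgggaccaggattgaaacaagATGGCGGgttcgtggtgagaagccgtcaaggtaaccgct
MRPL1: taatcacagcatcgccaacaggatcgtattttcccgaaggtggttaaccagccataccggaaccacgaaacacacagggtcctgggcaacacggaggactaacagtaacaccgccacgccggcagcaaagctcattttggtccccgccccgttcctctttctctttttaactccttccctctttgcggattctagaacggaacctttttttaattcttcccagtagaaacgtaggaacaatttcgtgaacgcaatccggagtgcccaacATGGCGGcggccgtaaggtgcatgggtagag
MRPS23: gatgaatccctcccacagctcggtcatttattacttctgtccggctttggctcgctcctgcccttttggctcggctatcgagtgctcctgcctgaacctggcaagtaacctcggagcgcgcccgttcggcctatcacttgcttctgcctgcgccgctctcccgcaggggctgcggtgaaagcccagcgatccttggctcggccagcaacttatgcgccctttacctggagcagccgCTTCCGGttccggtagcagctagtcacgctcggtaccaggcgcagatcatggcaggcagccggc
MRPL32: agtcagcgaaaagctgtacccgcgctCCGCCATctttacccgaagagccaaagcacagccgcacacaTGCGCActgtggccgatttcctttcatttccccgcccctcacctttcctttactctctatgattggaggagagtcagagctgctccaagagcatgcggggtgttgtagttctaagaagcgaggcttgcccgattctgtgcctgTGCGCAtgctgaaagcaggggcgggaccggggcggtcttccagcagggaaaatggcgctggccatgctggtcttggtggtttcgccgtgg
MRPS11: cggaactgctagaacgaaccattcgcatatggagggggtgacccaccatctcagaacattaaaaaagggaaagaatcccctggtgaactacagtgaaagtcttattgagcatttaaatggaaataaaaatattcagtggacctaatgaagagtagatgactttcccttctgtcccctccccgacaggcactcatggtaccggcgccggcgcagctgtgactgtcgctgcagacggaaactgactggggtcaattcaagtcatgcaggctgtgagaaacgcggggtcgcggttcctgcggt

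In the table of promoters 69 of the 78 members had a window, 85 windows in all, some of which overlap because 11 genes have more than 1 start. The ETS core was in 38.8% of the members' windows, against 16.4% of the 13801 windows of all genes with a kept probe and 10.3% of all windows. ATGGCGG was in 30.6%, against 9.08% and 5.55%, and TGCGCA in 17 of the 85 windows, against 1657 of 13801 and 8.24%. CACGTG was in 10.6% of the members' windows, against 9.27% and 7.26%. CTTTGAT was in 0 of the 85, against 1.64% and 2.62%, which says only that these letters are not in these windows. Cytosolic ribosomal protein genes had the ETS core in 36.6% of 71 windows and ATGGCGG in 18.3%. They had TGCGCA in 21.1%, beside 20% of the members' windows. The 30 members with the ETS core had a median log2 fold change of 0.31, with 26 of them higher in HCT116-MT, and the 39 without it had a median of 0.15, with 26 higher. Of the 6 genes that rose 1 had the ETS core and 3 had ATGGCGG. Since the windows run past the start, ATGGCGG may be coding sequence of the gene or of one facing it. Which matches are coding sequence was not tested, and the shares of ATGGCGG do not separate them from sites of a factor. The 25 members with ATGGCGG had a median of 0.18 and the 44 without it 0.23. For TGCGCA the medians were 0.22 in the 15 with it and 0.23 in the 54 without. For CACGTG they were 0.12 in the 9 with it and 0.26 in the 60 without. These values describe the windows, and no test was made of them.

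*MRPS11* lies head to head with another member, *MRPL46*, on chromosome 15, with 320 bases between their starts and 181 bases shared by their windows. *MRPL46*, which has no bacterial counterpart by name, was at 1449 and 1991 in HCT116-MT and at 1635 and 1214 in HCT116-WT. Its lines overlapped, with a log2 fold change of 0.27, beside 0.77 for *MRPS11*. *MRPL32* faces *PSMA2*, a subunit of the proteasome, with 202 bases between the starts, and *PSMA2* had a log2 fold change of 0.49.

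Of the 50 large-subunit genes 39 had the higher mean in HCT116-MT, with a median log2 fold change of 0.20, 3 of them past the study thresholds and 0 lower. Of the 26 small-subunit genes 19 did, with a median of 0.33, again 3 past the thresholds and 0 lower. For comparison, 3.48% of all genes rose and 3.86% fell at the study thresholds. *MRPS30* and *MRPS18A* are counted with the large subunit, where their proteins sit. By the unified names of ribosomal proteins, 29 large-subunit genes have a bacterial counterpart (median 0.22) and 21 do not (median 0.15). This order turned without replicate 2 of HCT116-MT, where the medians were 0.07 and 0.11. The median of all large-subunit genes was 0.10 with that array dropped, 0.09 with replicate 2 of HCT116-WT dropped and 0.10 with no normalization. In the small subunit 16 have one (median 0.28) and 10 do not (median 0.38). *MRPS18A* and *MRPS18B* are named as without a counterpart although they are related to *MRPS18C*. In all 10 small-subunit genes without a counterpart the lines did not overlap, with 8 higher and 2 lower in HCT116-MT. Of all genes 20.7% were higher and 19.1% lower without overlap. The difference between the subunits was not tested.

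**Figure D4:**
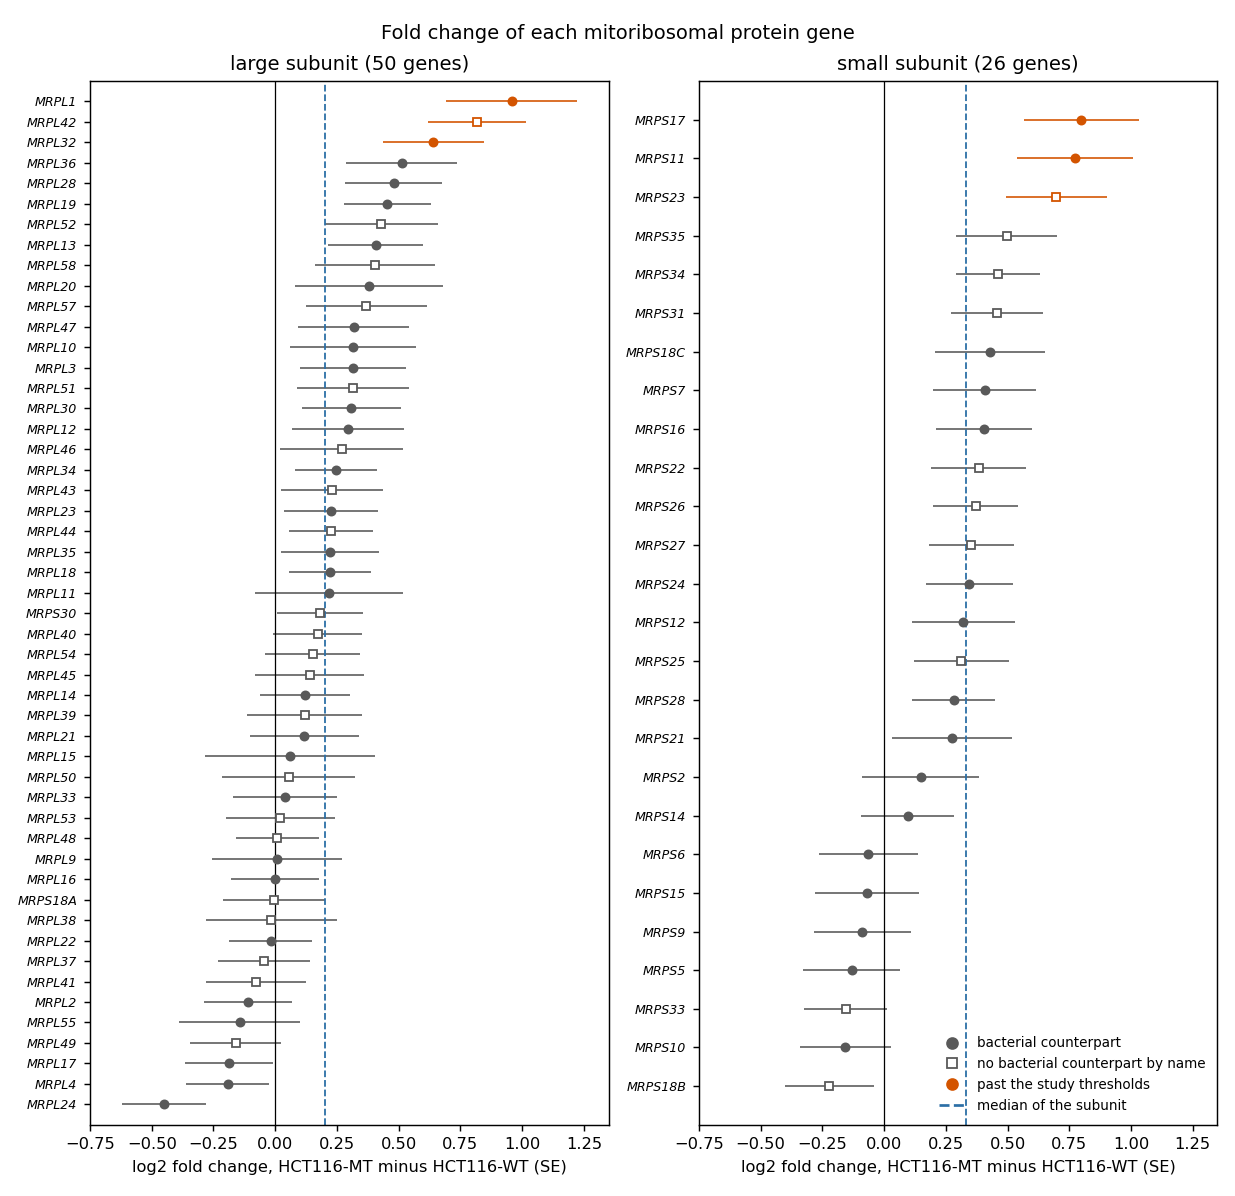
Log2 fold change of each gene, HCT116-MT minus HCT116-WT (horizontal axis, bars are the limma SE from 2 arrays per line), for the 50 large-subunit genes on the left and the 26 small-subunit genes on the right, sorted by size. Filled circles have a bacterial counterpart, open squares do not by name, orange marks genes past the study thresholds and the dashed line is the median, 0.20 on the left and 0.33 on the right.

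Below the 6 called genes, *MRPS34*, *MRPL19*, *MRPL28* and *MRPS31* had the smallest p among higher members. *MRPS34*, a mitochondrial addition to the small subunit, was at 377 and 392 in HCT116-MT and at 294 and 266 in HCT116-WT, with a log2 fold change of 0.46 (SE 0.17). *MRPL19*, a large-subunit protein with a bacterial counterpart, was at 1146 and 1292 in HCT116-MT and at 923 and 855 in HCT116-WT, with 0.45 (SE 0.18). In both genes the lines did not overlap and the unadjusted limma p was under 0.05, but the fold changes of 1.38 and 1.37 missed the study threshold.

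*MRPL28*, which also has a bacterial counterpart, was at 361 and 285 in HCT116-MT and at 239 and 221 in HCT116-WT (0.48). *MRPS31*, an addition of the small subunit, was at 2159 and 2527 in HCT116-MT and at 1594 and 1818 in HCT116-WT (0.46). The lines did not overlap in either gene, and the adjusted p of these 4 genes lay between 0.511 and 0.537 with limma. With neqc background correction *MRPL28* (0.71) and *MRPS34* (0.64) also passed the study thresholds.

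Of the members with the lower mean in HCT116-MT, *MRPL24* stood apart. Its protein has a bacterial counterpart that sits near the mouth of the exit tunnel. The brightest probe was at 3670 and 3484 in HCT116-MT and at 5101 and 4686 in HCT116-WT, with no overlap. The log2 fold change was -0.45 (SE 0.17, adjusted p = 0.514 with limma), with an unadjusted p of 0.0402, and it missed a fold of 1.5. A second probe, at 1589 and 1331 in HCT116-MT and at 1893 and 1558 in HCT116-WT, gave -0.24 with overlapping lines.

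No other member had a log2 fold change below -0.22. *MRPS18B*, a small-subunit protein, was at 2759 and 2750 in HCT116-MT and at 3498 and 2950 in HCT116-WT (-0.22). *MRPL4*, which lines the exit tunnel, was at 584 and 605 in HCT116-MT and at 701 and 657 in HCT116-WT (-0.19). *MRPL17*, a large-subunit protein near the tunnel exit in bacteria, was at 5277 and 6130 in HCT116-MT and at 6353 and 6604 in HCT116-WT (-0.19). These 3 genes, *MRPS33* (-0.15) and *MRPL49* (-0.16) did not overlap between the lines, but the unadjusted limma p of the 5 lay between 0.267 and 0.422. *MRPS10* (-0.16), *MRPL55* (-0.14), *MRPS5* (-0.13) and *MRPL2* (-0.11), which helps to form the peptidyl transferase center, had overlapping lines.

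The other members filled the range between these. *MRPL36* (0.51) and *MRPS35* (0.50) had the next highest fold changes after the 6 called genes, with unadjusted limma p of 0.0648 and 0.0544. *MRPL36* was at 4250 and 5816 in HCT116-MT and at 3777 and 3221 in HCT116-WT, and *MRPS35* at 1759 and 1471 in HCT116-MT and at 1274 and 1022 in HCT116-WT. Of the proteins of the flexible stalk that recruits translation factors, *MRPL12* was at 1278 and 1450 in HCT116-MT and at 1318 and 938 in HCT116-WT (0.29), and *MRPL11* and *MRPL10* gave 0.22 and 0.32. In *MRPL12*, *MRPL11* and *MRPL10* the lines overlapped, and these 5 genes are named here after their values were seen. *MRPL20-AS1* was at 1805 and 1798 in HCT116-MT and at 2657 and 1216 in HCT116-WT, with the HCT116-WT arrays on both sides of the HCT116-MT arrays. *MRPL42P5* was near the detection limit, at 150 and 169 in HCT116-MT and at 148 and 132 in HCT116-WT.

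Of the 24 members with more than 1 kept probe, 21 had the same sign in all of them. In *MRPL22*, whose protein reaches into the exit tunnel, the brightest probe gave -0.02 and the other 0.32. In *MRPL55* the 3 probes gave -0.14, 0.18 and 0.06, and in *MRPS21* the 2 probes gave 0.27 and -0.02. For the other 21 the probes differed by at most 0.36. Whether a probe also binds a pseudogene transcript was not tested. Over all 107 kept probes of the members 84 had the higher mean in HCT116-MT, 8 rose at the study thresholds and 0 fell, where 3.15% of all kept probes rose and 3.1% fell.

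The higher members were spread over the genome. Of chromosomes with at least 5 members, chromosome 17 had a median of 0.32 over 7 genes, with 6 higher, chromosome 2 had 0.13 over 8, chromosome 11 had 0.0085 over 7, chromosome 1 had 0.0033 over 9 and chromosome 6 had -0.06 over 6, with 2 higher. The medians of all genes on these 5 chromosomes lay between -0.06 and 0.00089. Chromosome 7 carried 2 of the 6 called genes, *MRPS17* and *MRPL32*, and chromosomes 4, 12, 15 and 17 carried 1 each. On chromosome 13, where the median of all genes was 0.23, *MRPL57* gave 0.37 and *MRPS31* 0.46. On chromosome 15, where it was 0.17, *MRPS11* gave 0.77.

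Lists of genes that build, supply or transcribe for the mitoribosome had medians above 0 as well, and a few of their genes rose at the study thresholds while 0 fell. Over all genes 3.48% rose and 3.86% fell at these thresholds, and 5933 of 11875 had the higher mean in HCT116-MT. In lists this short 1 gene makes a large share. *TFAM* passed these thresholds under every alternative that was run and *NOA1* under all but Student's t-test, whereas the other genes named as risen depended on the setting or on 1 array. Of 22 measured genes of mitoribosome assembly and rRNA modification 20 were higher in HCT116-MT (median 0.16) and 2 rose. *NOA1*, a GTPase of mitoribosome assembly, was at 3636 and 3023 in HCT116-MT and at 1423 and 1960 in HCT116-WT, with a log2 fold change of 0.99 (SE 0.23, adjusted p = 0.393 with limma). *MRM2*, which methylates the rRNA of the large subunit, was at 580 and 579 in HCT116-MT and at 424 and 325 in HCT116-WT (0.64, adjusted p = 0.446 with limma). The lines did not overlap in either gene. *MRM2* missed the study thresholds with median scaling, no normalization or Student's t-test, and without any 1 array other than replicate 1 of HCT116-WT. Median scaling gave a list median of 0.08, against -0.05 over all genes, and no normalization gave 0.02, against -0.12 over all genes. Dropping 1 array moved it to between 0.08 (replicate 2 of HCT116-WT) and 0.26 (replicate 1 of HCT116-MT).

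Of 16 translation factors 14 were higher (median 0.20) and, beside 3.48% of all genes, 1 rose. This was *GUF1*, a translational GTPase related to bacterial LepA, at 564 and 684 in HCT116-MT and at 455 and 320 in HCT116-WT (0.70, adjusted p = 0.466 with limma). It missed the study thresholds under the same 6 alternatives as *MRM2*, and the median of the translation factors was 0.09 with no normalization and lay between 0.09 (replicate 2 of HCT116-WT dropped) and 0.30 (replicate 1 of HCT116-WT dropped). Of 18 mitochondrial aminoacyl-tRNA synthetases and amidotransferase subunits 13 were higher (median 0.15) and 1 rose, *GATC*, which helps to make glutaminyl-tRNA, at 389 and 531 in HCT116-MT and at 249 and 251 in HCT116-WT (0.86, adjusted p = 0.405 with limma). *GATC* missed the thresholds with Student's t-test and without replicate 2 of HCT116-MT. These 18 genes had a median of 0.06 with median scaling, -0.01 with no normalization, and between 0.05 and 0.25 when an HCT116-WT array (replicate 2 or replicate 1, in that order) was dropped.

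Of 18 genes of mitochondrial DNA maintenance, transcription and RNA processing 16 were higher (median 0.27) and 2 rose, against 3.48% of all genes. *TFAM*, which packages mitochondrial DNA and starts its transcription, was at 3067 and 3252 in HCT116-MT and at 1521 and 1327 in HCT116-WT. Its log2 fold change of 1.15 (SE 0.18, adjusted p = 0.246 with limma) was higher than that of any mitoribosomal protein gene, and its arrays within a line were close to each other. *TWNK*, the helicase of mitochondrial DNA replication, was at 1190 and 1495 in HCT116-MT and at 856 and 684 in HCT116-WT (0.80, adjusted p = 0.421 with limma), and missed the thresholds with no normalization, with Student's t-test and without replicate 2 of HCT116-MT. The list's median was 0.17 with no normalization, and ranged from 0.12 (replicate 2 of HCT116-MT dropped) to 0.42 (replicate 1 of HCT116-WT dropped). *PNPT1*, an exoribonuclease named here after its values were seen, was at 4053 and 9197 in HCT116-MT and at 6770 and 14521 in HCT116-WT (-0.70), with lines that overlapped and replicates that differed more than the lines. It fell at the study thresholds with a block for the replicate number and without replicate 1 of HCT116-WT.

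Of 5 measured nuclear regulators of mitochondrial biogenesis 3 were higher (median 0.10) and 0 passed the thresholds. Their median was below 0 with no normalization (-0.05) and once replicate 2 of HCT116-MT was dropped (-0.15), 0.02 with median scaling and 0.19 once replicate 1 of HCT116-MT was dropped. *PPRC1* passed the thresholds in the last of these fits, as did *GABPB1* once replicate 1 of HCT116-WT was dropped. *GABPB1*, a subunit of the ETS factor GABP, was at 519 and 569 in HCT116-MT and at 480 and 343 in HCT116-WT (0.42, adjusted p = 0.642 with limma), *ESRRA* gave -0.21 and *PPRC1* 0.36, and *NRF1*, *PPARGC1A* and *PPARGC1B* had no kept probe. The 5 measured of 7 mitoribosomal proteins listed for names outside the usual series, of which *MRPL57* and *MRPL58* are also members, were all higher in HCT116-MT (median 0.34) with 0 past the thresholds. Dropping replicate 2 of either line lowered their median, to 0.13 for HCT116-MT and 0.17 for HCT116-WT, and with no normalization it was 0.19. *DAP3*, a GTP-binding protein of the small subunit, was at 3328 and 3516 in HCT116-MT and at 2604 and 2812 in HCT116-WT (0.34, adjusted p = 0.627 with limma), with no overlap.

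**Figure D5:**
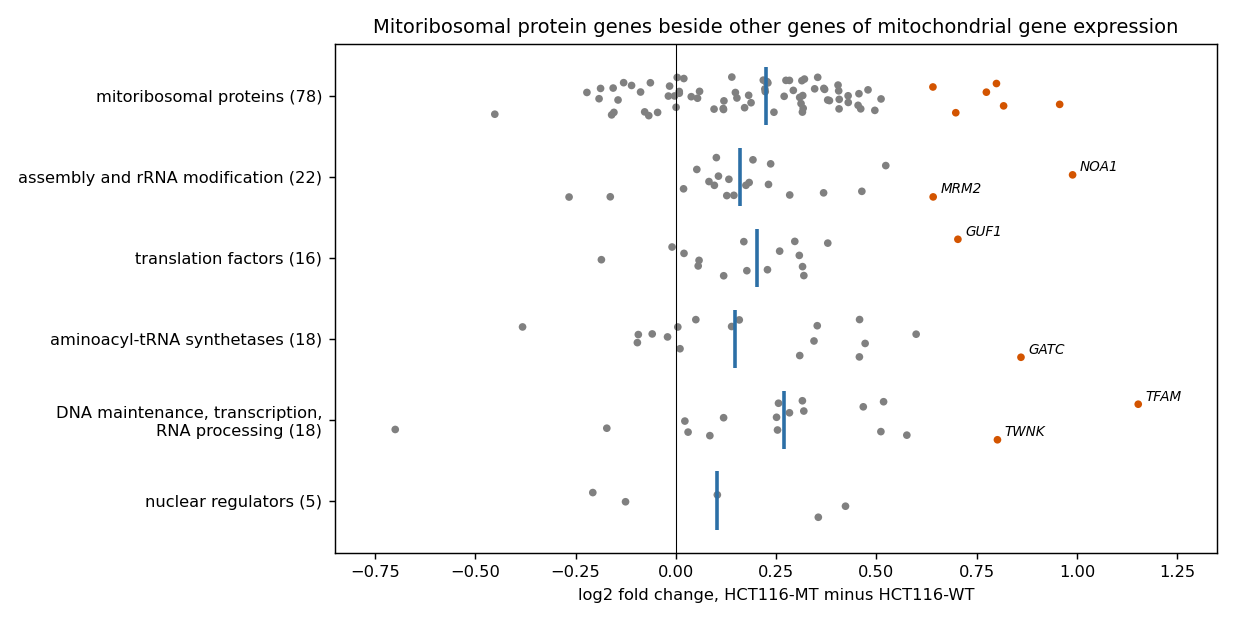
Log2 fold change of each measured gene, HCT116-MT minus HCT116-WT (horizontal axis), for the mitoribosomal protein genes and 5 lists of other genes of mitochondrial gene expression, with the number of genes in brackets, orange for genes past the study thresholds and a blue bar at the median. The medians lie between 0.10 and 0.27, and *TFAM* at 1.15 is the highest point.

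Of 72 cytosolic ribosomal protein genes 52 (72.2%) were higher in HCT116-MT, with a median log2 fold change of 0.11. They were taken by symbol, so that a paralogue such as *RPL7L1* is among them. At the study thresholds 3 rose (*RPL29*, *RPS23* and *RPS21*, named after their values were seen) and 0 fell, against 3.48% and 3.86% of all genes. In 29 of the 72 both HCT116-MT arrays lay above both HCT116-WT arrays, and in 5 both lay below, against 20.7% and 19.1% of all genes. With replicate 2 of HCT116-MT left out the cytosolic genes had a median of 0.15, beside 0.12 for the mitochondrial ones. With cyclic loess 39 of the 72 were higher and their median was 0.02, beside 0.18 for the mitochondrial ones, while it was 0.05 with no normalization and 0.07 with replicate 1 of HCT116-WT dropped. In place of 3 calls there were 0 with Student's t-test, where 1.28% of all genes rose, and the calls changed with any array left out. The difference between the 2 kinds of ribosomal protein genes was not tested.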

How the data were processed

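RNA of 2 HCT116-MT and 2 HCT116-WT samples was labelled and hybridized to HumanHT-12 v4 BeadChips. Per the methods, the authors extracted the arrays with GenomeStudio v2011.1, and the deposited table pairs each probe's intensity, which had not been normalized across arrays, with a detection p-value against negative controls. A second deposited table holds the same intensities, but 26122 of its 47319 shared probe IDs, and 114 of the 115 member probes, carry the values of another ID. Over such probes, the log2 fold changes of 2 probes of a gene correlated at r = 0.866 in the first table and at 0.300 in the second, so that only the first was used.

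Quantile normalization followed the methods and was run on log2 intensities. Probes detected (p-value under 0.05) on 2 or more of the 4 arrays were kept, and the lines were compared by limma 3.58.1 (R 4.3.3) across 20579 probes, with Benjamini-Hochberg adjustment over them. The brightest kept probe stood for a gene. The study called genes by an integrated method that was not rebuilt, and its thresholds were applied to the limma p. The fit was checked on simulated arrays. Symbols came from a platform table that names 1 gene for 30112 of 47321 probes, 30073 of them updated by gene ID. Figures were drawn with matplotlib 3.10.9.

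The members, the lists and the letters searched in promoters were chosen with earlier results of these data known, and the lists were taken from general knowledge. Genes were named by rule: all members past the study thresholds, up to 10 per direction by p, members whose probes disagree, and of each list those past the thresholds or otherwise up to 3 by p. The number of arrays limits the precision. Chip position is not given in the sources used here and was not modelled. The alternatives were neqc (offset 16), median scaling, cyclic loess, no normalization, a stricter detection limit of 0.01, no detection filter, detection on both arrays of either line, a mean-variance trend, a block for the replicate number, Student's t-test, the mean of a gene's kept probes, and each array left out in turn.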

Additional observations from a re-analysis of the deposited data

How the results depend on the processing

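Of 4 summary values (members higher, members lower, members at an adjusted p under 0.05 with limma, and the median), the count lower and the count at an adjusted p stayed at 0 under every alternative that was run. The median log2 fold change stayed above 0 under all of them, between 0.1155 and 0.2716 with an array left out (0.1155 without replicate 2 of HCT116-MT, where the median of all genes was 0.0084). The count of members that rose was 6, but 2 with no normalization (*MRPL42* and *MRPS17*) and 1 with Student's t-test (*MRPL42*), and with an array left out it lay between 0, when this was replicate 2 of HCT116-MT, and 10, when it was replicate 1 of HCT116-WT. With these arrays left out 2.16% and 6.47% of all genes rose. In those fits only the line with 2 arrays gives a spread, and the lone array is assumed to vary like it. With neqc 7 members rose, beside 4.12% of all genes. With no normalization 1.27% of all genes rose, the median of all genes was -0.12, and the members lay 0.258 above it. The higher mean in HCT116-MT was held by 60 of 78 members in the main fit and by 50 with no normalization. It was held by 54 with median scaling and by 54 with cyclic loess. Of all 11875 genes 3949 held it with no normalization, 5038 with median scaling and 5293 with cyclic loess. All genes that rose and fell numbered 413 and 458, against 326 and 542 with cyclic loess, 256 and 528 with median scaling, 151 and 697 with no normalization and 152 and 175 with Student's t-test. At an adjusted p under 0.05 2 genes were called, but 15 with a mean-variance trend, 9 with neqc, 9 with the mean of the kept probes, 6 with cyclic loess, 6 with a detection p-value under 0.01, and between 0 and 44 with an array left out. The causes were not tested.

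The named members that changed sign were *MRPL22*, *MRPL55* and *MRPS5*. With the mean of the kept probes *MRPL55* gave 0.0312 and *MRPL22* 0.15. With an array left out *MRPL22* ranged from -0.067 to 0.032, *MRPS5* from -0.27 to 0.011 and *MRPL55* from -0.43 to 0.13. Among the values of the 22 named members, the alternatives left 304 on the same side of the study thresholds with the same direction, 18 fell short of them, 2 newly passed them and 6 changed sign.

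The replicate numbers share only a number: same-numbered arrays deviated together at r = 0.0537 over all kept probes and at -0.157 over the members. With the replicate number as a block 6 members rose, 0 fell, the median was 0.22, and 413 and 541 of all genes rose and fell.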
